A study of Mus musculus with 4 samples.

Results

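Kinesins are motors that walk along microtubules, and the genes described here are the 42 of 25587 listed genes whose symbol begins with Kif or Kifc and a number. Of these, 15 were grouped as spindle kinesins, 17 as transport kinesins and 9 as others (cilia, Hedgehog signalling, or a role that is not clear). The last one, Kif4-ps, is named as a pseudogene of Kif4 and is no motor. Cenpe, the kinesin-7 motor of kinetochores, is a kinesin by function but not by symbol, and is given with the partner genes. RNA-Seq of non-growing oocytes (NGOs), 2 collections of growing oocytes (GO1 and GO2) and fully grown germinal vesicle oocytes (FGOs) gave 1 library per stage. All were pools of wild-type oocytes of C57BL/6 mice (C57BL/6Babr in the protocol), taken at 5 days post-partum for NGOs, 8 to 14 for GO1, 15 for GO2 and 20 for FGOs, with no treatment or transgene named for any of them. Ribosomal RNA was depleted from total RNA, and strand-specific libraries were made with a dUTP protocol for NGOs and FGOs and with the ScriptSeq v2 kit for GO1 and GO2.

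Values are RPKM, reads per kilobase of exon after scaling to the reads of the library, and can be compared between genes because they are per length. With 1 library per stage there was no replicate check and no test, and no p value is given. Intervals are 95 % exact Poisson intervals of the read counts recovered from RPKM and cover counting error only. They can be too narrow even for this, since reads or mates of a pair were counted more than once. They can be too wide for genes whose counts were recovered too low. A count of 3, taken as the floor, equals 0.0271 RPKM in NGOs, 0.0237 and 0.0124 in GO1 and GO2, and 0.0251 in FGOs for a gene with 1 kbp of exons. Changes were computed within a protocol (NGOs to FGOs, and GO1 to GO2) as log2 ratios of RPKM with a pseudocount of 0.1 RPKM after centring on the bulk of all genes, and 2-fold was the threshold. Across NGOs and GO1, and across GO2 and FGOs, stage and protocol cannot be told apart, and values are only set side by side. Where 4 values stand without a stage, their order is NGOs, GO1, GO2, FGOs.

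Spindle kinesins act on the microtubules that segregate chromosomes. Plus-end motors such as Kif11 push the poles apart, minus-end motors of the kinesin-14 family (Kifc1, Kifc5b) focus the poles, kinesin-13 proteins (Kif2a, Kif2b, Kif2c) take microtubules apart at their ends, and kinesin-4 and kinesin-6 proteins (Kif4, Kif20a, Kif20b, Kif23) work on chromosome arms and at the midzone where the cell divides. Transport kinesins carry vesicles, organelles and messenger RNAs, with kinesin-1 heavy chains (Kif5a, Kif5b, Kif5c) bound to light chains, and the kinesin-2 motors Kif3a and Kif3b bound to the accessory subunit Kifap3. An oocyte grows while arrested in the first meiotic prophase, without a spindle, and builds its first spindle after it is fully grown.

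The sequences just upstream of the start sites are shown for 6 members: Kif23, the most abundant kinesin in 3 of the 4 libraries, Kif11, whose window holds all the motifs searched, the related pair Kifc5b and Kifc1, and Kif18a and Kif5c, which passed 2-fold from NGOs to FGOs. They are the 250 bases before the RefSeq start on GRCm38.p6, written 5′ to 3′ on the gene's strand, and lie at chr9:61946800-61947049 (minus strand, Kif23), chr19:37376132-37376381 (plus, Kif11), chr17:26916841-26917090 (plus, Kifc5b), chr17:33890634-33890883 (minus, Kifc1), chr2:109280488-109280737 (plus, Kif18a) and chr2:49619036-49619285 (plus, Kif5c). Capitals mark TTTGAA (the core of the cell cycle homology region), CCAAT (the CCAAT box) and GGGCGG (the GC box), on either strand, so that a match on the other strand appears as its reverse complement.
Kif23: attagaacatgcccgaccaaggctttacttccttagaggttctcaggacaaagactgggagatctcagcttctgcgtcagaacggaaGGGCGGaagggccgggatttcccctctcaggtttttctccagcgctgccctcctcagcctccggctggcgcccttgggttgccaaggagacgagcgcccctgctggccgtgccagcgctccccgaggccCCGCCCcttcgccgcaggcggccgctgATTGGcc
Kif11: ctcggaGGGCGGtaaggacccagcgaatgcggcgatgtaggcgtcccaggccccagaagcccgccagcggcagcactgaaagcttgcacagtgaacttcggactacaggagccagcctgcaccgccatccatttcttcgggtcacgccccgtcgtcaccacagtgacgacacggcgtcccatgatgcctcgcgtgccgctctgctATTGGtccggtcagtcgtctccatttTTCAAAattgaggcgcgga
Kifc5b: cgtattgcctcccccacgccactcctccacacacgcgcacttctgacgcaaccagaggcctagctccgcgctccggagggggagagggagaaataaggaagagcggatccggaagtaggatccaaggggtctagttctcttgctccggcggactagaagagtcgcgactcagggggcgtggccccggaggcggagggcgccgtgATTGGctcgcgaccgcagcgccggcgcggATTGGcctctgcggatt
Kifc1: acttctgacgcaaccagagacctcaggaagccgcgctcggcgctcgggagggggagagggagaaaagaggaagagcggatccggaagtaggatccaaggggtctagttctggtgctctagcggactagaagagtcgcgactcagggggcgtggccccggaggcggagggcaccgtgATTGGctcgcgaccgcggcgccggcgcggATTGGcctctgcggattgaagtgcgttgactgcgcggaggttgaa
Kif18a: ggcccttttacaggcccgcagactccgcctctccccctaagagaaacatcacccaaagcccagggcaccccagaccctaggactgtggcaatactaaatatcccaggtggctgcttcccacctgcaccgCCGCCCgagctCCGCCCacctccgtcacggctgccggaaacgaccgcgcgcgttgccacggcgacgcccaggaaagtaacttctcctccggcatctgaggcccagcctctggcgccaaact
Kif5c: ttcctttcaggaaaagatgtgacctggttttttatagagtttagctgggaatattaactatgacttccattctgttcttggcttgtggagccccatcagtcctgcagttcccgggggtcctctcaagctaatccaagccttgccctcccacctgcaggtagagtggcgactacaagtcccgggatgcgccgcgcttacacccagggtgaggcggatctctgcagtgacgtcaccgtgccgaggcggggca

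Promoters were given for 33 of the 42 members. TTTGAA was found in 5 of 15 promoters of 14 spindle kinesins (33.3 %) and in 1 of 13 promoters of 11 transport kinesins (7.69 %), against 16 % of all 32851 promoters of this length. CCAAT was found in 60 % of the spindle and 30.8 % of the transport kinesin promoters, with 33.8 % over all. GGGCGG was found in 53.3 % and 61.5 %, with 32.7 % over all, so it was no more frequent in spindle than in transport kinesins. Some genes have more than 1 promoter. By gene, CCAAT was found in 9 of 14 spindle and 3 of 11 transport kinesins, and GGGCGG in 7 of 14 and 7 of 11. These are descriptions of a few promoters and show no binding. The promoters of Kifc5b and Kifc1 were 86.0 % identical over 222 bases when shifted by 28 bases, and each held a pair of CCAAT boxes near the start. None of the motifs was in the window of Kif5c. The window of Kifc1 overlaps the start of the gene as listed with the RPKM values, as do windows of several other members. Those of Kif2c, Kif4 and Kif17, and the Kif1a window that holds TTTGAA, lie wholly inside the listed gene. The TTTGAA counts of both classes therefore include a window that is not upstream of the listed gene. So do the spindle counts of CCAAT and GGGCGG, since the Kif4 window holds both motifs.

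The oocyte identity of the libraries was checked on marker genes. All 10 oocyte markers were well above the floor, between 20.6 RPKM (Figla in FGOs) and 2261 RPKM (Zp2 in NGOs). They were not steady, and summed to 6288 RPKM in NGOs, 4011 and 3919 in GO1 and GO2, and 3934 in FGOs. From NGOs to FGOs, 4 of the 10 fell past 2-fold (Figla, Ddx4, Zp3 and Zp2) and 1 rose (Bmp15). Over all genes tested, 12.6 % fell and 15.2 % rose past 2-fold. Of the 8 granulosa markers, all were above 0 in every library and their summed level was 2.66 RPKM in NGOs, 2.46 and 5.07 in GO1 and GO2, and 10.9 in FGOs, with Cyp19a1 (aromatase) at 6.08 RPKM and the defining marker Foxl2 at 0.0265 in FGOs and no more than 0.0753 in any library. The 6 stroma markers summed to 5.51 RPKM in NGOs and to between 0.158 and 0.245 in the others, with Lum at 0 in GO1, GO2 and FGOs and Col1a1 at 2.24 RPKM in NGOs. Among the 3 blood and endothelium markers listed, Ptprc and Cdh5 were at most 0.0408 RPKM and Pecam1 was between 1.74 RPKM in NGOs and 9.70 in FGOs. The stroma sum thus stood highest in NGOs and the granulosa sum highest in FGOs, and their part in the kinesin values was not tested. In bulk libraries fewer cells of a type and less RNA per cell cannot be told apart. The counts recovered on all genes ranged from 62587709 in NGOs to 137351243 in GO2.

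Spindle kinesins were the more abundant class in each library. Their summed level was 426 RPKM in NGOs, 506 and 458 in GO1 and GO2, and 374 in FGOs, and that of the transport kinesins was 115, 107, 113 and 110 RPKM. The ratio of these sums was 3.72 in NGOs, 4.74 and 4.03 in GO1 and GO2, and 3.41 in FGOs. The class medians stood further apart. For spindle kinesins the median was 17.5 RPKM in NGOs, 22.1 and 22.4 in GO1 and GO2, and 21.8 in FGOs, and for transport kinesins it was 1.94, 2.33, 3.24 and 3.29. Among the 18975 genes that reached 3 counts in a library, the median lay between 0.956 and 1.22 RPKM. Of the 15 spindle kinesins, 14 exceeded 1 RPKM in each library and 9 or 10 reached 10 RPKM, and of the 17 transport kinesins 11 or 12 exceeded 1 RPKM and 3 to 5 reached 10. Over all listed genes, 36.6 to 38.5 % reached 1 RPKM and 13.1 to 14.2 % reached 10.

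**Figure D1:**
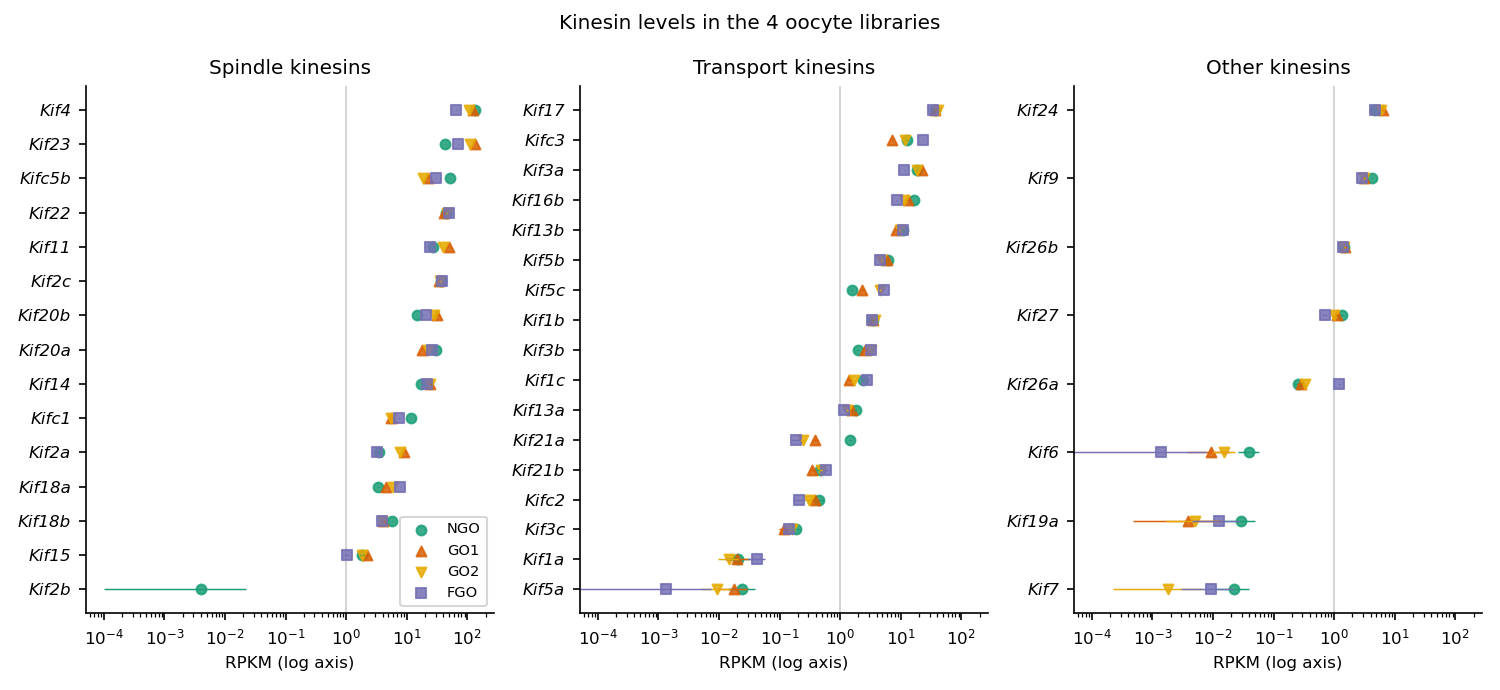
RPKM of each kinesin (log axis) in the 4 libraries, with spindle, transport and other kinesins in separate panels lines for the 95 % counting intervals and values of 0 not drawn. Apart from Kif2b, spindle kinesins lie between 1.02 and 135 RPKM, whereas transport kinesins reach from 0.00132 RPKM (Kif5a in FGOs) to 41.4 (Kif17 in GO2).

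A few genes made up most of each sum. Kif4, a chromokinesin that binds chromosome arms and the central spindle, gave 31.8 % of the spindle sum in NGOs, 24.6 % and 23.0 % in GO1 and GO2, and 17.7 % in FGOs. Kif4 and Kif23 together gave 51.3 % of it in GO1 and 36.6 % in FGOs. Kif17, a kinesin-2 motor known from cilia and dendrites, gave 31.7 %, 35.0 %, 36.5 % and 30.7 % of the transport sum. Without Kif4 the spindle sum was 290 RPKM in NGOs, 382 and 352 in GO1 and GO2, and 308 in FGOs. That FGOs had a lower spindle sum than NGOs thus rested on Kif4, but without Kif4 the FGO sum stayed below those of GO1 and GO2. Without Kif17 the ratio of the sums was 5.44 in NGOs, 7.30 and 6.35 in GO1 and GO2, and 4.92 in FGOs, and without Kif4 it was 2.53, 3.58, 3.10 and 2.80. GO1 had the highest ratio and spindle kinesins the higher sum under each of these choices.

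**Figure D2:**
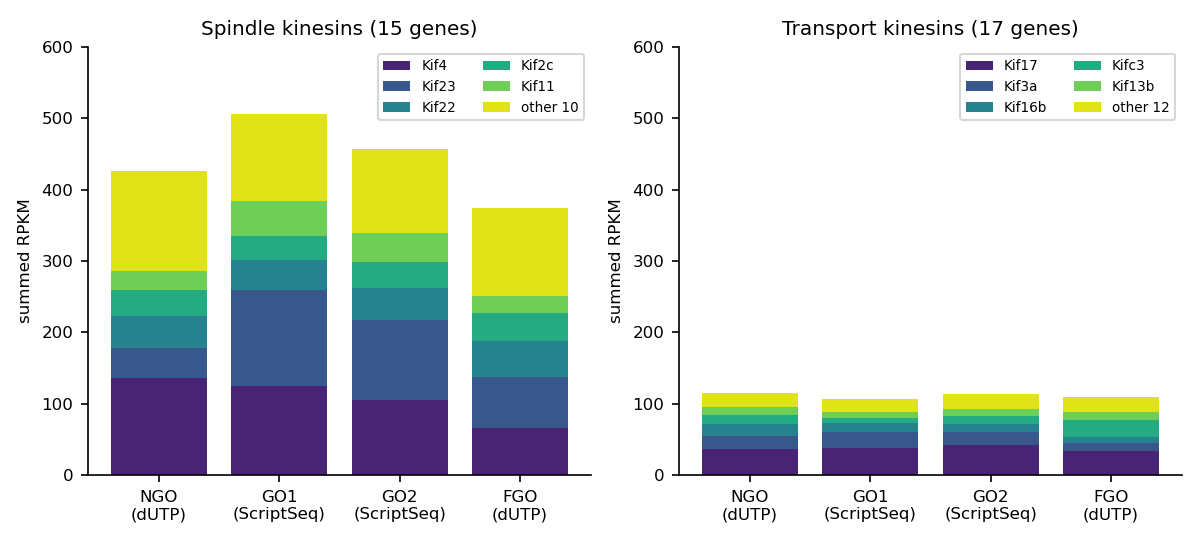
Summed RPKM of the 15 spindle kinesins and the 17 transport kinesins in each library on the same linear axis, with the leading 5 genes of each class in colour. The spindle bars stand at 426, 506, 458 and 374 RPKM, and the transport bars between 107 and 115 RPKM, with Kif17 as their largest segment.

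The 10 most abundant kinesins of each library were 8 spindle and 2 transport kinesins, and 7 genes were among them in all 4 libraries: Kif4, Kif11, Kif14, Kif17, Kif22, Kif23 and Kif2c. NGOs were led by Kif4, followed by Kifc5b, Kif22 and Kif23, and the other libraries by Kif23, followed by Kif4. In NGOs the counting intervals of Kif22 and Kif23 overlapped, and so did those of Kif2c and Kif17, so the order within these pairs was not resolved. Kif11 and Kifc3 could likewise not be ordered in FGOs, nor Kif3a and Kifc5b in GO1 and in GO2. In GO2 these hold the tenth place and the next, so the transport kinesin Kif3a stood among the 10 there only by a difference within counting error.

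Among the midzone and chromosome arm kinesins, Kif4 (chrX:100625737-100727214) was at 135 RPKM in NGOs (interval 134 to 136), 125 and 105 in GO1 and GO2, and 66.1 in FGOs (65.4 to 66.7). Its level was thus lower at each later stage, and its log2 change from NGOs to FGOs was −0.98, just inside the 2-fold threshold. Uncentred, this change was −1.03 and past it. Pdzd11, at 17.2 to 31.3 RPKM, overlaps 0.82 % of the gene body of Kif4 on the opposite strand. Kif23 (chr9:61917280-61946799), a kinesin-6 of the centralspindlin complex that is needed for cytokinesis, was at 43.0 RPKM in NGOs, 135 and 112 in GO1 and GO2, and 70.9 in FGOs. It was lowest in NGOs and highest in the ScriptSeq libraries, and the ratio of Kif4 to Kif23 was 3.15 in NGOs but lay between 0.923 and 0.945 in the other 3 libraries. Kif22, a chromokinesin that pushes chromosomes towards the equator, varied less, at 43.8, 42.0, 45.8 and 50.8 RPKM.

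The other 2 kinesin-6 genes differed in profile. Kif20a, which localises the chromosomal passenger complex at the midzone, was at 30.04 RPKM in NGOs, 17.7 and 22.4 in GO1 and GO2, and 26.5 in FGOs. Kif20b was at 14.8, 31.8, 28.4 and 20.8 RPKM. Kif20a was the higher of the pair in both dUTP libraries and Kif20b in both ScriptSeq libraries, with ratios of Kif20b to Kif20a of 0.491 in NGOs, 1.80 and 1.27 in GO1 and GO2, and 0.783 in FGOs. Kif14, another cytokinesis motor, was at 17.5, 24.6, 24.4 and 21.8 RPKM. The gene body of Kif20a overlaps the opposite-strand gene Cdc23 over 26.8 % of its length, and Cdc23 was at 0.982 to 1.27 RPKM.

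Of the bipolar and pole-focusing motors, Kif11 (Eg5, the kinesin-5 that slides antiparallel microtubules) was at 27.4 RPKM in NGOs, 49.1 and 40.5 in GO1 and GO2, and 24.1 in FGOs. Kif15, a kinesin-12 that can share the work of Kif11, was far lower, at 1.82, 2.18, 1.82 and 1.02 RPKM. Both were higher in GO1 than in GO2 and higher in NGOs than in FGOs. The kinesin-14 gene Kifc5b was at 51.1 RPKM in NGOs, 22.1 and 18.3 in GO1 and GO2, and 30.3 in FGOs, and its close relative Kifc1 at 11.6, 5.50, 5.53 and 7.53 RPKM. Both stood highest in NGOs and lowest in the ScriptSeq libraries, and Kifc5b exceeded Kifc1 by 3.31 to 4.40 times in every library. Of the 100-base windows in their transcripts, 16.6 % in Kifc5b and 17.0 % in Kifc1 were the same in the other gene. A read from such a window does not by itself tell the genes apart, so some reads may be counted for the wrong gene. The effect on the ratio of Kifc5b to Kifc1 was not tested. Apart from these 2 genes, only Kif24 (2.97 %) and Kif18a (0.11 %) shared any such window with another gene, and Kif4 shared none with Kif4-ps.

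Kif2c (MCAK), a kinesin-13 that removes wrong attachments at centromeres, varied little, at 36.8, 33.7, 35.8 and 38.9 RPKM. Kif2a, the kinesin-13 of the poles, which also acts in neurons, was at 3.55 RPKM in NGOs, 9.16 and 7.75 in GO1 and GO2, and 3.27 in FGOs. Kif2c therefore exceeded Kif2a by 10.4 times in NGOs and 11.9 in FGOs but by 3.68 times in GO1 and 4.62 in GO2. Kif2b, the remaining kinesin-13, had 1 count in NGOs and 0 in the other libraries, below the floor of 3 counts. Kif18a, a kinesin-8 that dampens chromosome oscillations at the plate, was at 3.33 RPKM in NGOs (3.23 to 3.44), 4.61 and 5.92 in GO1 and GO2, and 7.88 in FGOs (7.72 to 8.04), higher at every later stage. Kif18b, the other mitotic kinesin-8, was at 5.63, 4.12, 3.97 and 3.98 RPKM. The order of the 2 kinesin-8 genes was therefore different in NGOs, where Kif18b was the higher, from that in the other 3 libraries.

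**Figure D3:**
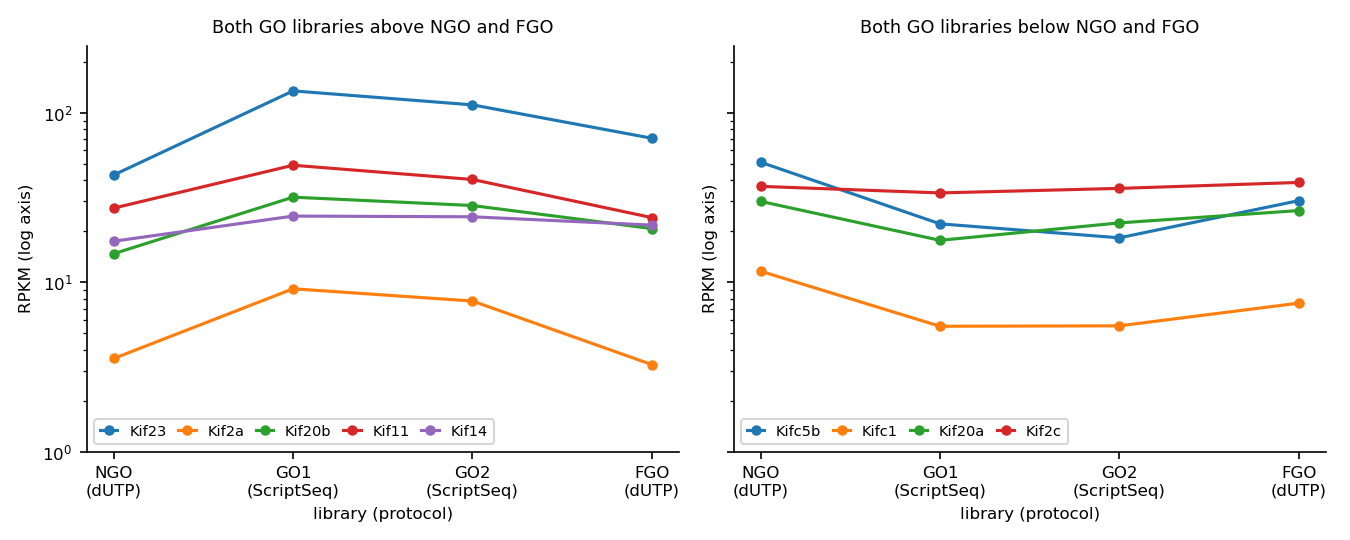
RPKM (log axis) of spindle kinesins whose values in both ScriptSeq libraries (GO1, GO2) were above, left, or below, right, those in both dUTP libraries (NGO, FGO). Kif23 reaches 135 RPKM in GO1 from 43.0 in NGOs, whereas Kifc5b is at 22.1 RPKM in GO1 and 51.1 in NGOs, and lines only join libraries, since the protocol changes along with stage.

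Both ScriptSeq libraries were above both dUTP libraries in 9 of the 35 members with at least 0.1 RPKM in a library, against 21.6 % of all such genes. The 5 spindle kinesins among the 9 were Kif11, Kif14, Kif20b, Kif23 and Kif2a. Both were below in 7 members, against 30.9 % of all genes, and 4 of these were the spindle kinesins Kif20a, Kif2c, Kifc1 and Kifc5b. In such genes growing stage and protocol cannot be told apart. Levels were higher at each later stage in 4 members (Kif5c, Kif18a, Kif3b and Kif26a), with 11.5 % over all genes, and lower at each later stage in 7 (Kif4, Kif5b, Kif13a, Kif16b, Kif21a, Kif27 and Kifc2), with 9.72 % over all genes. Every step was larger than the counting intervals only for Kif5c and Kif18a among the former and Kif4 and Kif16b among the latter, while in the other 7 the intervals of at least 1 pair of neighbouring stages overlapped.

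The transport kinesins were led by Kif17 (chr4:138250435-138301967), at 36.3 RPKM in NGOs, 37.3 and 41.4 in GO1 and GO2, and 33.7 in FGOs. Its gene body overlaps Sh2d5 on the same strand over 21.1 % of its length, and Sh2d5 was at most 0.527 RPKM. Of the heterotrimeric kinesin-2 genes, Kif3a was at 18.5, 22.3, 18.4 and 11.5 RPKM and Kif3b at 1.94, 2.58, 3.24 and 3.29. Kif3a exceeded Kif3b in all libraries, by 9.54 times in NGOs (interval 8.97 to 10.1), 8.64 and 5.70 in GO1 and GO2, and 3.49 in FGOs (3.32 to 3.67). The alternative partner Kif3c, known from neurons, was between 0.119 and 0.186 RPKM. Kifap3, the accessory subunit, was at 11.7 RPKM in NGOs, 5.29 and 2.58 in GO1 and GO2, and 1.23 in FGOs, and passed 2-fold downwards in both pairs, with log2 changes of −3.10 and −1.04. The ratio of Kif3a to Kifap3 accordingly went from 1.57 in NGOs to 9.34 in FGOs.

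The kinesin-1 heavy chains, the conventional cargo motors, exchanged their order. Kif5b, the ubiquitous form, was at 6.08 RPKM in NGOs, 5.90 and 4.72 in GO1 and GO2, and 4.59 in FGOs. The opposite-strand gene Gm17036 overlaps 32.6 % of the gene body of Kif5b. Gm17036 was at 0 RPKM in NGOs and FGOs, and at 0.124 and 0.538 in GO1 and GO2. The effect of this overlap on the Kif5b values was not tested. Kif5c (chr2:49619298-49774778), best known from neurons, was at 1.57 RPKM in NGOs (1.48 to 1.66), 2.33 and 4.54 in GO1 and GO2, and 5.22 in FGOs (5.06 to 5.37). The ratio of Kif5c to Kif5b was 0.258 in NGOs (0.242 to 0.274), 0.395 and 0.964 in GO1 and GO2, and 1.14 in FGOs (1.09 to 1.19). Kif5b was thus the higher in NGOs and GO1, by little in GO2, and Kif5c in FGOs. Kif5a, the neuronal heavy chain, had 17, 14, 14 and 1 counts and was at most 0.0244 RPKM. The summed level of the 3 heavy chains lay between 7.68 RPKM in NGOs and 9.81 in FGOs, and that of the light chains Klc1 to Klc4 between 12.1 in GO1 and 19.3 in NGOs.

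**Figure D4:**
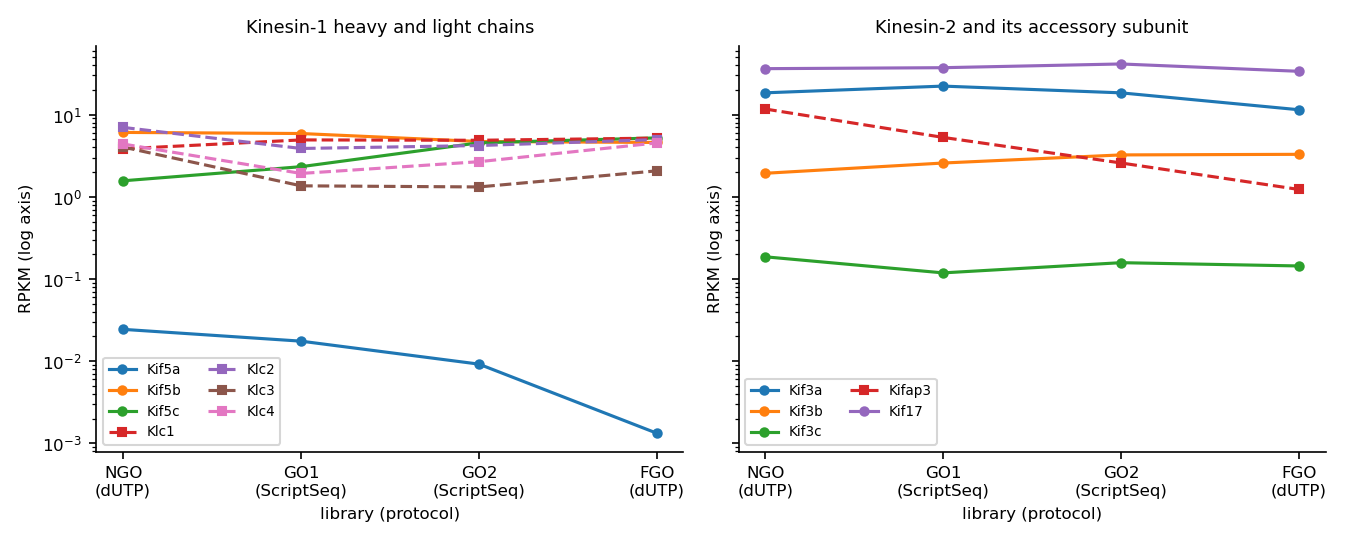
RPKM (log axis) of kinesin-1 heavy chains and light chains (left) and of kinesin-2 motors with the accessory subunit Kifap3 (right) in each library. Kif5c is close to Kif5b in GO2 and FGOs, and Kifap3 goes from 11.7 RPKM in NGOs to 1.23 in FGOs while Kif3b goes from 1.94 to 3.29.

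Within the kinesin-3 family, which moves vesicles and endosomes, Kif16b (a carrier of early endosomes) was at 16.4 RPKM in NGOs, 13.1 and 11.5 in GO1 and GO2, and 8.57 in FGOs. Kif13b was at 10.9, 8.37, 9.58 and 11.0 RPKM and its relative Kif13a at 1.81, 1.55, 1.29 and 1.18. Kif13b exceeded Kif13a in each library, by between 5.39 times in GO1 and 9.32 in FGOs. Kif1b, a carrier of mitochondria and synaptic vesicle precursors, was at 3.55, 3.45, 3.76 and 3.32 RPKM, and its interval of the log2 change from NGOs to FGOs (−0.09 to 0.01) included 0. Kif1c was at 2.34, 1.42, 1.69 and 2.81 RPKM, and the neuronal Kif1a at no more than 0.0422 RPKM.

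The minus-end motor Kifc3 (chr8:95099832-95142540), which acts in membrane traffic and at cell junctions, was at 12.6 RPKM in NGOs, 7.05 and 11.99 in GO1 and GO2, and 23.4 in FGOs. It was the higher at the later stage in both pairs. Kifc2, the remaining minus-end motor, was at 0.440 RPKM in NGOs and 0.213 in FGOs. Kif21a and Kif21b, kinesin-4 proteins of neurons that slow microtubule growth, were both low. Kif21a was at 1.48 RPKM in NGOs (1.39 to 1.57), 0.380 and 0.242 in GO1 and GO2, and 0.186 in FGOs, so that NGOs stood apart from the other libraries. Kif21b was at 0.457, 0.349, 0.480 and 0.585 RPKM.

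From NGOs to FGOs, 4 of the 35 members tested passed 2-fold, while 27.7 % of the 14386 genes tested did (24.2 % of those with at least 1 RPKM in the pair). Higher in FGOs were Kif5c, Kif18a and Kif26a, against 15.2 % of all genes, and lower was Kif21a, against 12.6 %. Thus 1 of 14 spindle kinesins passed (Kif18a), 2 of 15 transport kinesins (Kif5c and Kif21a) and 1 of 5 others (Kif26a). Median log2 changes were −0.09 in spindle kinesins, −0.05 in transport kinesins and 0.00 over all genes tested. In absolute size the median was 0.49 in spindle and 0.52 in transport kinesins, with 0.58 over all. Both class medians were far from the threshold, while single members ranged from −2.41 to 1.96. Past 4-fold was 1 of the 35 members (Kif21a), with 6.92 % of all genes tested.

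Kif5c rose by 1.73 on the log2 scale, and without the pseudocount by 1.79 with a counting interval of 1.70 to 1.88. Kif18a rose by 1.27 (1.30 without the pseudocount, 1.24 to 1.35). The low-level gene Kif26a, a kinesin-like protein that signals without motor activity, was at 0.252 RPKM in NGOs, 0.280 and 0.324 in GO1 and GO2, and 1.22 in FGOs, and its log2 change of 1.96 became 2.33 (2.11 to 2.56) without the pseudocount. FGOs alone stood high. The granulosa markers also had their highest sum in FGOs, 10.9 RPKM, of which Cyp19a1 gave 6.08. Of the 7 tested, 4 passed 2-fold upwards (Cyp19a1, Hsd17b1, Inha and Kitl), against 15.2 % of all genes tested. Amh and Fshr rose by less, with log2 changes of 0.61 and 0.83. Amhr2 fell (0.397 to 0.225 RPKM), and so did Foxl2, which was not tested (0.0753 to 0.0265 RPKM). Kif18a and Kif5c were at 5.92 and 4.54 RPKM in GO2, where the granulosa sum was 5.07 RPKM over 8 genes. Of that sum, Cyp19a1 gave 3.13. The part of granulosa cells in the rise of Kif26a, Kif18a and Kif5c was not tested, and marker levels do not bound it.

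Kif21a fell by 2.41 on the log2 scale, and its change was −2.94 (−3.20 to −2.68) without the pseudocount. The stroma markers had their highest sum in NGOs too, with Col3a1 at 1.73 RPKM there. Of the 5 tested, 4 were more than 2-fold lower in FGOs (Col1a1, Col1a2, Col3a1 and Dcn), against 12.6 % of all genes tested. The other, Pdgfra, changed little, from 0.189 RPKM in NGOs to 0.151 in FGOs (log2 change −0.14). The part of stroma cells in the NGO value of Kif21a was not tested. Within 2-fold, but with a log2 change of more than 0.5 in either direction, were Kif4 (−0.98), Kif16b (−0.87), Kif27 (−0.80), Kif15 (−0.73), Kifc2 (−0.73), Kifc5b (−0.69), Kif3a (−0.62), Kifc1 (−0.56) and Kif13a (−0.52), and Kifc3 (0.95), Kif3b (0.79), Kif23 (0.78) and Kif20b (0.55), all as log2 changes. For each of these genes the counting interval excluded 0, which says nothing about the spread between oocyte pools.

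From GO1 to GO2, 0 of the 35 members passed 2-fold, where 3.79 % of 13881 genes did (2.69 % upwards, 1.1 % downwards, and 2.64 % in either direction of those with at least 1 RPKM in the pair). Nor did any pass 4-fold, as 0.238 % of all genes did. The largest differences were in transport kinesins, with log2 changes of 0.90 for Kif5c, 0.72 for Kifc3 and −0.53 for Kif21a. Among spindle kinesins they ranged from −0.31 (Kif23, Kif11 and Kifc5b) to 0.32 (Kif18a). Of the 14 spindle kinesins 10 were below 0, with a median of −0.14, and of the 15 transport kinesins 9 were above 0, with a median of 0.12, while the median of all genes was 0.00. Both medians are well below the 2-fold threshold.

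**Figure D5:**
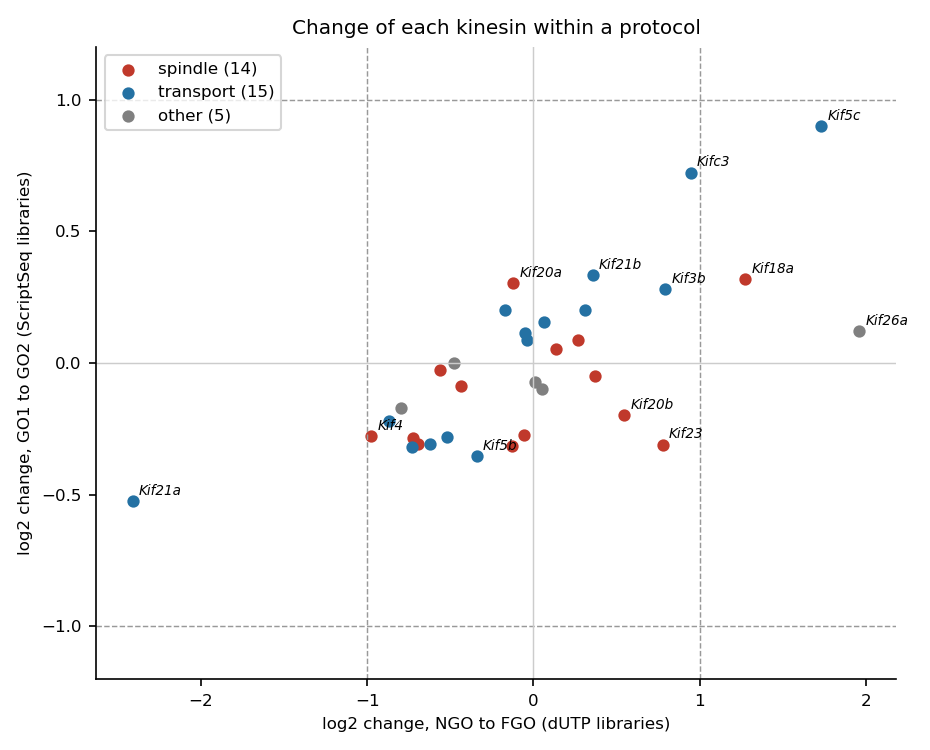
Log2 change of each kinesin from NGOs to FGOs (horizontal, dUTP libraries) and from GO1 to GO2 (vertical, ScriptSeq libraries) for 34 members, without Kif4-ps, with dashed lines at 2-fold. Kif5c lies furthest to the upper right, at 1.73 and 0.90, Kif21a furthest to the left, at −2.41 and −0.53, and Kif23 is higher in the later library of one pair only, at 0.78 and −0.31.

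The 2 pairs share no library. The later library was the higher in both pairs for 10 members, against 34.6 % of the genes tested in both, and the lower in both for 14, against 33.8 %. Signs were opposite for 11, against 31.6 %. The 10 were the transport kinesins Kif1c, Kif3b, Kif5c, Kif13b, Kif21b and Kifc3, the spindle kinesins Kif2c, Kif18a and Kif22, and Kif26a. The 14 held the spindle kinesins Kif2a, Kif4, Kif11, Kif15, Kif18b, Kifc1 and Kifc5b, the transport kinesins Kif3a, Kif5b, Kif13a, Kif16b, Kif21a and Kifc2, and Kif27. Several of these signs rest on little. Kifc1, at 5.50 RPKM in GO1 and 5.53 in GO2, is lower in GO2 only after centring (−0.03, and 0.01 uncentred). The counting intervals also included 0 for Kif2a from NGOs to FGOs (−0.14 to 0.01) and for Kif26a from GO1 to GO2 (−0.05 to 0.40).

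None of the remaining kinesins reached 10 RPKM. Kif24, which remodels microtubules at centrioles, was at 4.75, 6.31, 6.04 and 4.72 RPKM, and Kif9, known from sperm flagella and cilia, at 4.19, 3.07, 3.15 and 2.86. Kif27, a relative of the Hedgehog regulator Kif7, was at 1.34, 1.12, 1.01 and 0.697 RPKM, and Kif26b at 1.38 to 1.49. Kif6, Kif7 and Kif19a, genes of cilia or Hedgehog signalling, did not exceed 0.0391 RPKM. Kif6 had 26 counts in NGOs, 7 and 22 in GO1 and GO2, and 1 in FGOs, and Kif7 had 11, 0, 2 and 5. Kif12 was listed at 0 in all 4 libraries. Kif4-ps was at 0.244, 0.613, 0.568 and 0.328 RPKM, and its profile differed from that of Kif4, which was highest in NGOs. The 7 members that did not reach 0.1 RPKM in any library, and were not tested for changes, were Kif1a, Kif2b, Kif5a, Kif6, Kif7, Kif12 and Kif19a.

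Genes that work with the kinesins were examined as lists. Of the 17 motor partners 16 were tested from NGOs to FGOs, of which 1 rose past 2-fold (Dync1i1, a dynein intermediate chain, 0.158 to 0.822 RPKM) and 3 fell (Kifap3, the dynein heavy chain Dync1h1 with a log2 change of −1.71, and the light intermediate chain Dync1li1 with −1.16), against 15.2 % upwards and 12.6 % downwards over all genes tested. Dync1h1, the motor subunit of the dynein that moves opposite to most kinesins, was at 15.6 RPKM in NGOs, 6.14 and 5.63 in GO1 and GO2, and 4.51 in FGOs. From GO1 to GO2 1 of 16 passed, downwards (Kifap3), against 3.79 % of all genes in either direction. Cenpe, which brings chromosomes to the spindle equator, was at 13.6, 38.1, 35.6 and 22.5 RPKM, with both ScriptSeq libraries above both dUTP libraries as for Kif23.

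None of the 18 spindle partners passed 2-fold in either pair, where 27.7 % and 3.79 % of all genes did, and their median log2 changes were 0.06 and −0.03. Tacc3, a spindle pole protein and the most abundant of them, was at 224, 194, 212 and 200 RPKM. Prc1, the midzone bundler that recruits Kif4, was at 62.0, 80.4, 68.7 and 46.1 RPKM, and Racgap1, the partner of Kif23 in centralspindlin, at 8.397, 7.11, 7.55 and 9.79 RPKM. Kif23 was thus above Racgap1 in every library. Of 12 proliferation genes 2 rose past 2-fold from NGOs to FGOs, namely Aspm (26.0 to 70.6 RPKM) and Ccnb1 (49.3 to 124 RPKM), against 15.2 % of all genes, and 0 from GO1 to GO2. Mki67, the marker of cycling cells, was at 12.1, 40.1, 32.2 and 12.7 RPKM.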

How the data were processed

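The authors deposited 1 table with a value per gene and library, trimmed with Trim Galore 0.2.8 and mapped to GRCm38 with TopHat2 2.0.9 per the submitters' notes. The authors gave these values as linear RPKM. They are not whole numbers, although their file name speaks of counts. The program, annotation and strand setting behind them are not given in the sources used here. Opposite-strand genes can therefore share reads. The members and gene lists were chosen with earlier results of these data known, and every member and list gene may be named.

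Counts were recovered with the library total and exon length that made them whole (tolerance 0.03 counts plus a small share of the count). The totals were 110595193 (NGOs), 126796785 and 241385721 (GO1 and GO2) and 119629258 (FGOs), and at least 99.4 % of single-exon values came out whole, as did 89.8 % (NGOs) to 98.5 % (GO2) of the values with the highest counts checked. These totals exceed the uniquely mapped reads that the authors give for each library. So do the counts recovered on all genes, for example 62587709 in NGOs and 71566591 in FGOs. Reads, or both mates of a pair in these paired-end libraries, were thus counted more than once, which makes the intervals too narrow. Which of these it was could not be tested. Where a smaller length also made the counts whole, counts can be too low and the intervals too wide. For such genes the direction of the error in the intervals is not known. Intervals cover counting error only, since PCR copies could not be told from separate molecules.

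Changes were centred on a trimmed mean of log ratios (30 % of ratios and 5 % of mean levels trimmed at each end), over genes with at least 0.1 RPKM in one of the pair. A fold on the log2(value + 0.1) scale understates the change of low genes. No model of raw counts was fitted, since 1 library per stage leaves no spread to estimate. Scripts were tested on simulated data. Python 3.11.15, numpy 2.4.6, pandas 2.3.3, scipy 1.17.1 and matplotlib 3.10.9 were used. Promoter sequences are from RefSeq, and transcript lengths from a GENCODE annotation of GRCm38, which may not be the one the authors used. Genes outside the table were not analysed here.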

Additional observations from a re-analysis of the deposited data

How the results depend on the processing

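No paired analysis was possible because each stage has 1 library, and for the same reason no replicate could be left out. Other pseudocounts, filters and scalings turned the sign of no kinesin's change that passed 2-fold. Signs near 0 turned for Kif24 and Kif26b (NGOs to FGOs) and Kifc1 (GO1 to GO2) when not centred, and for Kif9 (GO1 to GO2) under 3 settings. Uncentred, Kif4 also passed 2-fold from NGOs to FGOs (−1.03), which made 2 spindle kinesins past it, and with a pseudocount of 1 RPKM Kif26a no longer did (0.86). At 4-fold, 0 spindle kinesins and 1 transport kinesin passed. With recovered counts and a prior count of 1, 4 transport kinesins passed, the low-count genes Kif1a and Kif5a among them, and Kif6 of the other kinesins also passed. With no filter but the pseudocount of 0.1 RPKM these 3 genes were tested and did not pass. The median log2 change from NGOs to FGOs became −0.148 in spindle and −0.107 in transport kinesins when not centred. From GO1 to GO2 the transport median was 0.0777 with a pseudocount of 1 RPKM, 0.0894 with no filter and 0.151 when not centred.

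The ratio of summed spindle to transport RPKM was 3.17 in NGOs, 4.49 and 3.82 in GO1 and GO2, and 3.06 in FGOs without Kifc1 and Kifc5b, and 3.75, 4.69 and 3.99 in NGOs, GO1 and GO2 without Kif2a, Kif21a and Kif21b. Leaving out Kif4 (2.53, 3.58, 3.10 and 2.80) or Kif17 (5.44, 7.30, 6.35 and 4.92) was chosen after seeing the data. Each left GO1 with the highest ratio. Kif2b and Kif12 had too few counts in every library for any statement on change.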
